A study of Gallus gallus with 12 samples.

Results

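OMD, PODN and ASPN encode osteomodulin, podocan and asporin, 3 members of the small leucine-rich proteoglycan (SLRP) family. They were taken from a table of 12297 transcript rows by their symbols, and each symbol had 1 row (ENSGALT00000045876.1 for OMD, ENSGALT00000017329.4 for PODN and ENSGALT00000007519.4 for ASPN). The 3 genes were chosen by their group levels in these same libraries, so their values are given below as a description, with differences and standard errors and no test. Groups said below not to overlap hold 2 libraries each, and the share of all rows whose groups are likewise apart was not counted. Such statements are therefore description too. Tests are read only for the other genes. These come from 15 lists of family, pathway and cell type genes, which were also chosen with earlier results of these data known. Their p-values and the shares called in a list do not allow for that choice.

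The samples came from untreated White Leghorn chicken embryos, in 6 groups of 2 libraries each. Their titles call them dermis and their tissue labels skin. Back (dorsal) skin was taken at embryonic day 7 (E7, Hamburger and Hamilton stage 31) and at E9 (stage 35), and thigh and wing skin at E9 (stage 35). These 4 groups were labelled as feather-forming. Scale-forming skin was taken at E9 (stage 35) and at E11 (stage 37). Body site, the kind of appendage and the timing of its development cannot be told apart in a comparison of scale with feather skin. No label gives the sex of the embryos, says whether embryos were pooled, or tells whether the 2 replicates of a group are different embryos, so the spread between replicates, and p-values resting on it, may be technical.

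SLRPs are secreted proteins of the extracellular matrix whose leucine-rich repeats bind collagen fibrils, and several of them carry glycosaminoglycan chains. They are known for setting the thickness and spacing of fibrils, and mice lacking decorin or lumican, which belong to the same family, have fragile skin. ASPN is a class I member that binds collagen and the growth factor TGF-beta. OMD is a class II keratan sulfate proteoglycan known mainly from bone, and PODN is a class V member that binds collagen and is known in mouse as an inhibitor of vascular smooth muscle cell growth.

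Libraries held 13164611 to 20641981 reads on the table's rows, and 1 read was worth 0.0475 to 0.0736 CPM (counts scaled to a common library size), the unit of the deposited values. A level of 3 reads, the most that a count of 0 allows, was therefore 0.143 to 0.221 CPM, for counting error only. The summed level of the W-linked genes HINTW and SPINW, which only female chickens carry, was 0.410 CPM in both dorsal E9 libraries and 54.3 to 184 CPM in the other 10. Thigh replicate 2 had 12.9% of its reads on mitochondrial rows, against 3.24% to 4.75% in the others. The titles speak of dermis where the tissue labels speak of skin, and skin is the word used here. PDGFRA, a receptor that marks fibroblasts, had group means of 864 to 1881 CPM. The 20 measured dermal fibroblast markers summed to 7268 to 9588 CPM. The 22 measured keratinocyte markers summed to 318.5 to 928 CPM, with none at 0 in both libraries of any group. How much epidermis each sample held is not known.

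ASPN was highest in dorsal skin and lowest in scale skin. Its levels were 221 and 288 CPM in dorsal E7 skin and 336 and 323 CPM in dorsal E9 skin. Thigh skin had 107 and 184 CPM and wing skin 156 and 146 CPM. Scale skin had 29.3 and 27.7 CPM at E9 and 58.6 and 82.1 CPM at E11. Every feather library was above every scale library, and the lowest feather value was that of thigh replicate 1. The group means ran from dorsal E9 (329 ± 9.49 CPM, SD, n = 2) through dorsal E7, wing, thigh and scale E11 to scale E9 (28.5 ± 1.15 CPM, n = 2), an 11.6-fold span. Wing and thigh skin overlapped and are not ordered, while the other neighbours in that order did not overlap. The row had 423 to 6580 reads per library.

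OMD was almost absent from dorsal skin and highest in thigh skin. Dorsal libraries had 0.66 and 0.51 CPM at E7 and 0.31 and 0.46 CPM at E9, which were 6 to 9 reads each. Thigh skin had 48.2 and 69.1 CPM, from 768 and 991 reads, while wing skin, also feather-forming, had 2.63 and 1.47 CPM, from 44 and 31 reads. Scale skin had 33.2 and 28.8 CPM at E9 and 9.74 and 9.12 CPM at E11. Thigh and scale E9 skin thus stood far above wing and dorsal skin, and no 2 groups overlapped. The order of means was thigh (58.7 ± 14.8 CPM, n = 2), scale E9 (31.0 ± 3.12), scale E11 (9.43 ± 0.44), wing (2.05 ± 0.82), dorsal E7 (0.585 ± 0.106) and dorsal E9 (0.385 ± 0.106), a span of 152-fold. The last 2 overlapped in counting error, with exact 95% Poisson intervals of their pooled reads of 0.342 to 0.913 CPM at E7 and 0.215 to 0.633 CPM at E9.

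PODN was highest in the youngest skin. Dorsal E7 libraries had 614 and 530.2 CPM and dorsal E9 libraries 36.5 and 51.2 CPM. Thigh skin had 25.2 and 22.3 CPM and wing skin 146 and 142 CPM. Scale skin had 195 and 184 CPM at E9 and 78.3 and 87.1 CPM at E11. No 2 groups overlapped. The order of means was dorsal E7 (572 ± 59.1 CPM, n = 2), scale E9 (189.8 ± 7.81), wing (144 ± 2.95), scale E11 (82.7 ± 6.19), dorsal E9 (43.8 ± 10.4) and thigh (23.7 ± 2.11), a span of 24.1-fold. Neighbours in this order were 1.32-fold to 3.01-fold apart, and the row had 319 to 9326 reads per library. In bulk tissue, fewer cells that make a transcript and less transcript per cell cannot be told apart, for these 3 genes or any other.

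**Figure D1:**
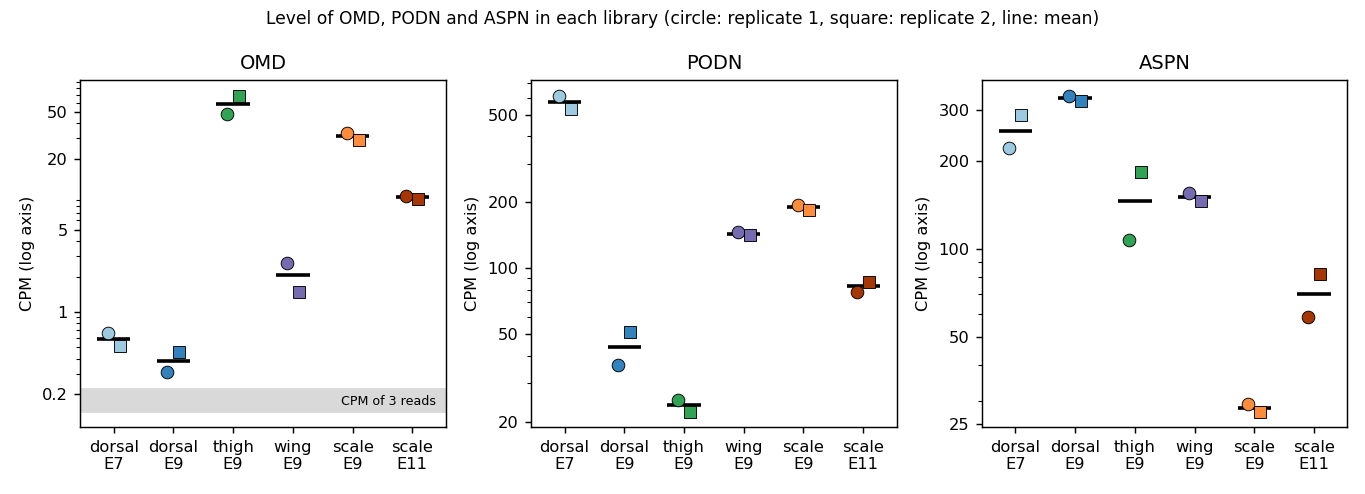
Level of each gene (CPM, log axis) in each library of the 6 groups, with a circle for replicate 1, a square for replicate 2 and a line at the group mean; the grey band in the OMD panel spans the level of 3 reads (0.143 to 0.221 CPM). OMD peaks in thigh skin, PODN in dorsal E7 skin and ASPN in dorsal E9 skin, and ASPN is the one of them that is lowest in scale E9 skin.

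No pair of the 3 genes shared an order of groups. Thigh skin had the highest OMD mean and the lowest PODN mean. Dorsal E9 skin had the highest ASPN mean and the lowest OMD mean. Over the 12 libraries, log2(CPM + 1) of OMD and ASPN correlated at r = -0.69, of OMD and PODN at -0.41 and of PODN and ASPN at -0.10. These are descriptions over libraries that fall into 6 groups of 2 and share the scaling within each library.

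The comparison named by the study's design text sets scale-forming against feather-forming regions. At E9, ASPN was lower in scale skin by -2.71 ± 0.19 (log2 difference of log2(CPM + 1) ± SE) than the mean of dorsal, thigh and wing skin, with means of 28.5 and 209 CPM. PODN was higher in scale skin by 1.82 ± 0.14, with means of 189.8 and 70.6 CPM, and its scale libraries lay above all 6 feather libraries. OMD was higher by 2.36 ± 0.20, but its scale libraries lay between those of thigh skin and those of wing and dorsal skin. Its difference was 1.27 with dorsal E9 skin left out and 3.97 with thigh skin left out, so for OMD the mean of 3 regions stands for no single region. ASPN stood at -2.31 without dorsal E9 skin, and PODN at 1.25 without thigh skin. On recovered reads, which take no added CPM, the OMD difference was 3.11 in edgeR, against -2.76 for ASPN and 1.84 for PODN.

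Region by region, ASPN was lower in scale E9 skin than in dorsal (-3.49 ± 0.23), wing (-2.36 ± 0.23) and thigh skin (-2.27 ± 0.23). PODN was higher in scale E9 skin than in thigh (2.95 ± 0.17) and dorsal skin (2.11 ± 0.17), and by 0.40 ± 0.17 than in wing skin, where the means of 189.8 and 144 CPM were 1.32-fold apart. OMD was higher in scale E9 skin than in dorsal (4.53 ± 0.24) and wing skin (3.42 ± 0.24) and lower than in thigh skin (-0.88 ± 0.24). These comparisons share the scale E9 libraries with each other. The dorsal E9 libraries lack W-linked transcripts and all other libraries have them, so in any comparison of dorsal E9 skin with another region, region and that difference cannot be told apart.

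For OMD and PODN, differences among the feather regions at E9 were of a size like those between scale and feather skin. OMD was higher in thigh than in dorsal skin by 5.41 ± 0.24 in log2(CPM + 1), and by 7.23 in edgeR on reads. The ratio of the CPM means, with nothing added, was 152-fold and rests on 6 and 9 reads in the dorsal E9 libraries. In wing skin OMD was lower than in thigh skin by -4.29 ± 0.24. PODN was higher in wing than in thigh skin by 2.55 ± 0.17 and than in dorsal skin by 1.71 ± 0.17, and lower in thigh than in dorsal skin by -0.84 ± 0.17. ASPN was lower than in dorsal skin in both thigh (-1.22 ± 0.23) and wing skin (-1.12 ± 0.23). Wing and thigh skin differed in ASPN by 0.10 ± 0.23, with overlapping libraries, and by -0.29 without thigh replicate 1.

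**Figure D2:**
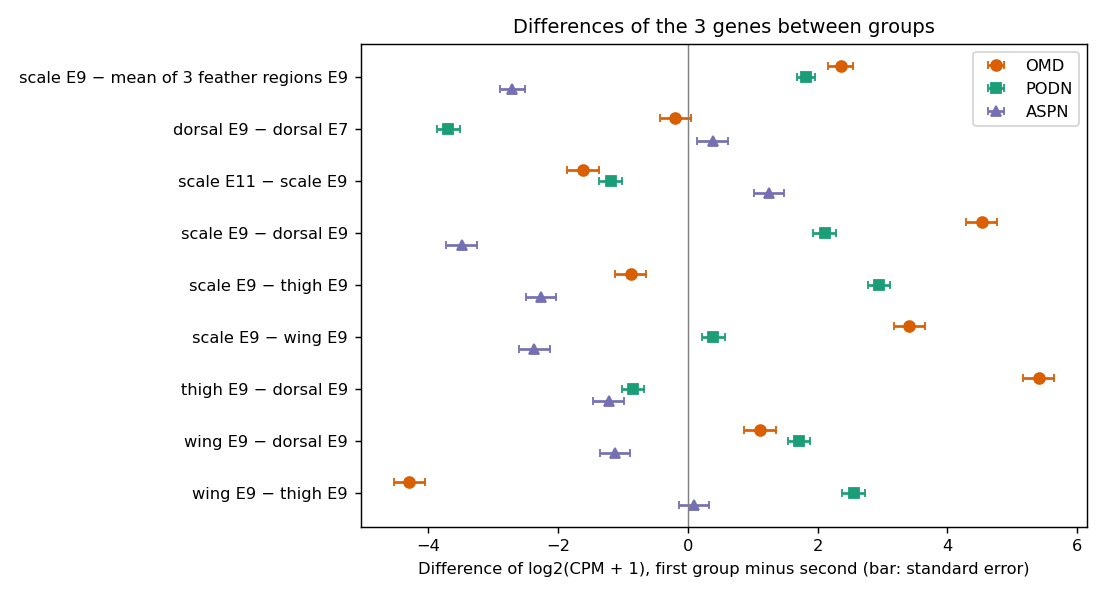
Log2 differences of log2(CPM + 1), first group minus second, for the 3 genes in each comparison, with bars of 1 standard error; comparisons that name the same group share its libraries. The ASPN points of scale E9 skin against each feather region all lie between -3.49 and -2.27, while the OMD point against thigh skin (-0.88) lies on the other side of 0 from those against dorsal (4.53) and wing skin (3.42).

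PODN was 13.0-fold lower in dorsal skin at E9 than at E7, with means of 43.8 and 572 CPM. The difference was -3.69 ± 0.17, and -3.45 or -3.93 without dorsal E9 replicate 1 or 2. ASPN means were 255 and 329 CPM (0.38 ± 0.23), and the 2 ages did not overlap although the difference was under 2 standard errors. OMD was near the level of a few reads at both ages (-0.20 ± 0.24, or -0.58 in edgeR on reads). The dorsal E9 libraries are those that lack W-linked transcripts, so age and that difference cannot be told apart here. RefSeq's chicken assembly GRCg7b places neither OMD nor PODN on a sex chromosome, and its gene list has no entry named ASPN. Where a gene lies does not tell whether its level depends on sex, which was not tested.

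Between E9 and E11 in scale skin, ASPN was higher and both other genes lower. ASPN means were 28.5 and 70.3 CPM, 2.47-fold apart (1.26 ± 0.23). OMD means were 31.0 and 9.43 CPM, 3.29-fold apart (-1.62 ± 0.24), and PODN means 189.8 and 82.7 CPM, 2.30-fold apart (-1.19 ± 0.17). For each gene the 2 ages did not overlap, which describes 2 libraries of each age and is no test. The ages compared in dorsal and scale skin differ, so the sizes of the changes are not compared between them.

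The table gave 11 of 15 other SLRP genes listed, and BGN, OPTC, NYX and PODNL1 were not analysed here. In limma over 12277 rows, with Benjamini-Hochberg adjustment over all rows, 4 of these 11 were called at an adjusted p under 0.05 between scale E9 skin and the mean of the feather regions, 2 higher and 2 lower. edgeR on recovered reads also called 4, and DESeq2 called 6, 4 higher and 2 lower. Of all rows limma called 16.6%, 7.77% higher and 8.86% lower. The median difference of the 11 was 0.11, against -0.01 over all rows. LUM, which encodes lumican and is known from cornea and skin, stood at 2341 and 2419 CPM in scale E9 skin and at 1164 to 1169 CPM in wing, 1857 to 2413 in thigh and 994 to 1075 in dorsal E9 skin. Its difference was 0.80 ± 0.17 (adjusted p 0.00449). EPYC, the cartilage proteoglycan epiphycan, was higher by 0.69 ± 0.19 (adjusted p 0.0228), at 3.93 ± 1.10 CPM in scale E9 skin. Its means were 3.24 CPM in thigh, 2.655 in wing and 0.82 CPM in dorsal E9 skin. Against thigh (limma, adjusted p 0.515) or wing skin alone (0.325) EPYC was not called. CHADL, a chondroadherin-like gene, was lower by -1.57 ± 0.19 (adjusted p 8.62e-05), at 1.05 ± 0.49 CPM in scale E9 skin. TSKU, whose product tsukushi binds BMP proteins in chick, was lower by -0.42 ± 0.12 (adjusted p 0.0274), with means of 46.4 CPM in scale E9 skin and 53.3 to 74.1 CPM in the 3 feather regions.

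Of these 4 calls, that of CHADL was kept without each library in turn. The LUM call was lost without scale E9 replicate 2 (adjusted p 0.0613), and the EPYC call without wing replicate 1 (0.0540) or scale E9 replicate 1 (0.282). The TSKU call was lost without dorsal E9 replicate 1, wing replicate 1 or 2, or scale E9 replicate 1 or 2 (adjusted p 0.0649 to 0.216). Without the dorsal E9 libraries the LUM (adjusted p 0.0622), EPYC (0.340) and TSKU (0.183) calls were lost, and with only the groups compared in the fit those of EPYC (0.0560) and TSKU (0.0642). The count of called genes was 7 without thigh replicate 2 and 2 without wing replicate 1 or either scale E9 replicate.

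Between dorsal E7 and E9 skin 4 of the 11 rose and none fell in limma, with a median of 0.44 against 0.03 over all rows, and of all rows 20.1% were called, 12.2% higher and 7.96% lower. Unadjusted, 5 of the 11 had a p under 0.05, and edgeR and DESeq2 each called 4. ECM2, a class I relative of decorin, rose from 111 ± 16.9 to 281 ± 6.95 CPM (1.34 ± 0.25, adjusted p 0.00171). CHADL rose from 1.97 ± 0.59 to 6.81 ± 1.13 CPM (1.40 ± 0.24, adjusted p 0.000878). KERA, the corneal proteoglycan keratocan, rose from 101 ± 5.53 to 170.1 ± 9.63 CPM (0.74 ± 0.18, adjusted p 0.00915), and TSKU from 52.3 ± 1.60 to 74.1 ± 3.46 CPM (0.49 ± 0.15, adjusted p 0.0277). The KERA call was lost without dorsal E7 replicate 1 or 2 or dorsal E9 replicate 1 (adjusted p 0.0548 to 0.0944), and the TSKU call without any single one of the 4 libraries (0.0841 to 0.186). The count was 2 without dorsal E7 replicate 1, dorsal E7 replicate 2 or dorsal E9 replicate 1.

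Between scale E9 and E11 skin limma called 0 of the 11, and edgeR and DESeq2 also called 0. Of all rows limma called 5.83%, 4.37% higher and 1.46% lower. Unadjusted, 3 of the 11 had a p under 0.05. EPYC stood lower (-0.67 ± 0.23, adjusted p 0.122), TSKU lower (-0.41 ± 0.15, adjusted p 0.134) and CHADL higher (0.66 ± 0.24, adjusted p 0.137), and none of these passed. The median of the 11 was 0.10, against 0.01 over all rows.

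More of the 11 were called between dorsal skin and the other single regions at E9. Scale against dorsal skin had 9 of the 11 called, 5 higher and 4 lower (21.8% of all rows), and thigh against dorsal skin 8, 6 higher and 2 lower (30.0% of all rows). In scale skin DCN, LUM, KERA, EPYC and OGN were higher than in dorsal skin, and FMOD, PRELP, CHADL and TSKU lower. In thigh skin DCN, ECM2, LUM, KERA, EPYC and OGN were higher than in dorsal skin, and FMOD and PRELP lower. DCN encodes decorin, OGN osteoglycin, and FMOD fibromodulin, which takes part in collagen crosslinking in tendon. OGN stood at 803 ± 36.1 CPM in dorsal E9, 2078 ± 466 in thigh and 1771 ± 83.4 in scale E9 skin. FMOD stood at 5.33 ± 1.14 CPM in dorsal E9, 0.52 ± 0.24 in thigh and 0.97 ± 0.30 in scale E9 skin. Both comparisons share the dorsal E9 libraries, which lack W-linked transcripts, so region and that difference cannot be told apart in them or in wing against dorsal skin. Wing against dorsal skin had 6 called (20.1% of all rows) and wing against thigh skin 3, all lower (20.9%). Scale against thigh skin had 2 called (24.4% of all rows) and scale against wing skin 2 (8.89%). The counts moved with single libraries. Scale against thigh skin had 4 called without thigh replicate 1, and 1 without thigh replicate 2 or either scale replicate. Scale against wing skin had 0 without wing replicate 1, and 1 without wing replicate 2 or scale replicate 2. Wing against dorsal skin had 3 without wing replicate 2, and wing against thigh skin 1 without wing replicate 1 or 2. CHAD, the cartilage protein chondroadherin, had 7 to 58 reads per library and came nearest to a call in wing against dorsal skin (limma, adjusted p 0.0701).

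**Figure D3:**
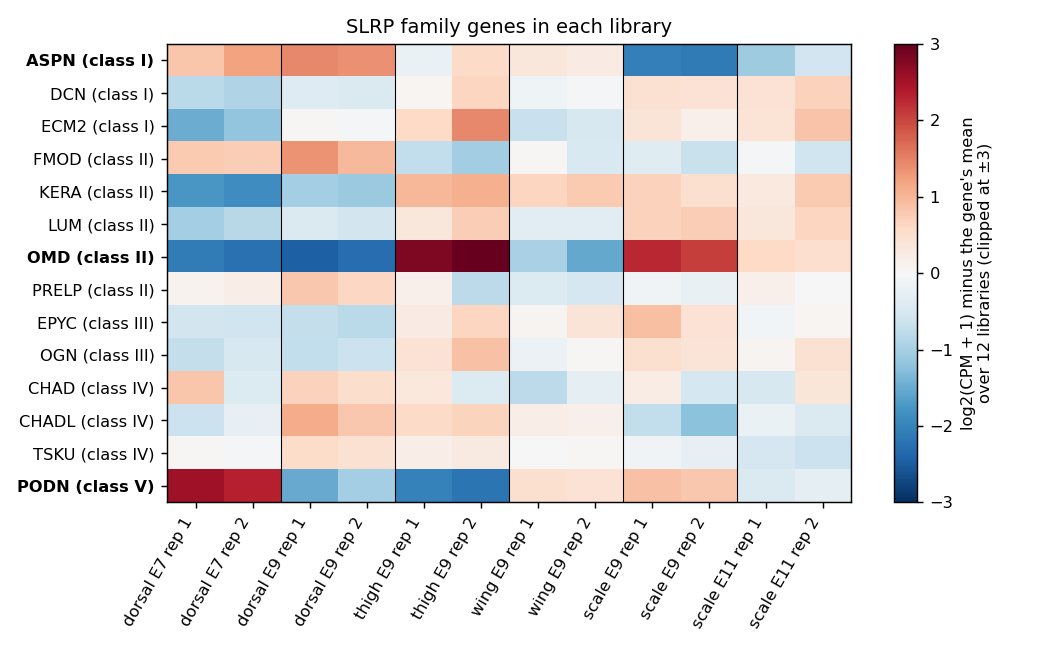
Log2(CPM + 1) of each measured SLRP gene minus its mean over 12 libraries, one row per gene by class and one column per library, clipped at 3 either way; bold names are the 3 genes described here. OMD (lowest group mean 0.385, highest 58.7 CPM), PODN and ASPN have the strongest colours, and the OMD row is red in thigh and scale libraries, where the LUM and OGN rows are also red or near their mean.

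The span between groups is part of what chose the 3 genes and is given only as a description. The highest group mean was 152-fold the lowest for OMD, 24.1-fold for PODN and 11.6-fold for ASPN. Over the 11 other genes the ratio ran from 2.14-fold in TSKU to 10.2-fold in FMOD. OMD levels correlated over the 12 libraries with those of OGN (r = 0.93), LUM (0.91) and, inversely, FMOD (-0.86). PODN correlated most with ECM2, inversely (-0.80), and ASPN with LUM, inversely (-0.77). In GRCg7b, OMD lies next to OGN, with ECM2 close by on the other side. PODN lies between SCP2 and CPT2. The RefSeq list holds no entry named ASPN, and an entry named BGN lies between ECM2 and OMD, so the name ASPN rests on the deposited table alone. Whether reads were counted by strand is not given in the sources used here, so reads of overlapping genes cannot be told apart.

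By the same measure over 9052 rows with a symbol and a mean of at least 5 CPM, the row most like OMD was PRPS2, an enzyme of nucleotide synthesis (r = 0.96). PTGR1, a prostaglandin reductase, followed (0.95), then both rows of Asip, the agouti signalling protein that acts on pigment cells (0.95 and 0.93), and GXYLT2, a xylosyltransferase (0.93). The Asip row with more reads had group means of 0.69 to 1.92 CPM in dorsal, 11.98 in wing, 84.4 in thigh, 88.8 in scale E9 and 58.9 CPM in scale E11 skin. That is the same set of low and high groups as for OMD, with scale E9 rather than thigh skin at the top.

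Most like PODN were TSEN15, a subunit of the tRNA splicing endonuclease (r = 0.95), HMGI-C, a chromatin protein (0.94), CTHRC1, a secreted protein with a collagen repeat (0.93), KIAA0895L (0.91) and COLGALT2, which adds galactose to collagen (0.91). COLGALT2 had means of 94.3 CPM in dorsal E7, 78.1 in scale E9 and 17.9 to 32.6 CPM in the other 4 groups. Most like ASPN were MTUS1, a microtubule-associated protein (0.96), both rows of the transcription factor OSR1 (0.94 and 0.92), the sialyltransferase ST8SIA6 (0.92) and the transcription factor foxp2 (0.92). The OSR1 row with more reads had 98.9 CPM in dorsal E9, 48.9 in dorsal E7 and 4.56 CPM in scale E9 skin. With Spearman's rho, 3, 3 and 2 of the 5 rows named for OMD, PODN and ASPN were among the first 5 again. With r over the 6 group means it was 2, 1 and 0.

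**Figure D4:**
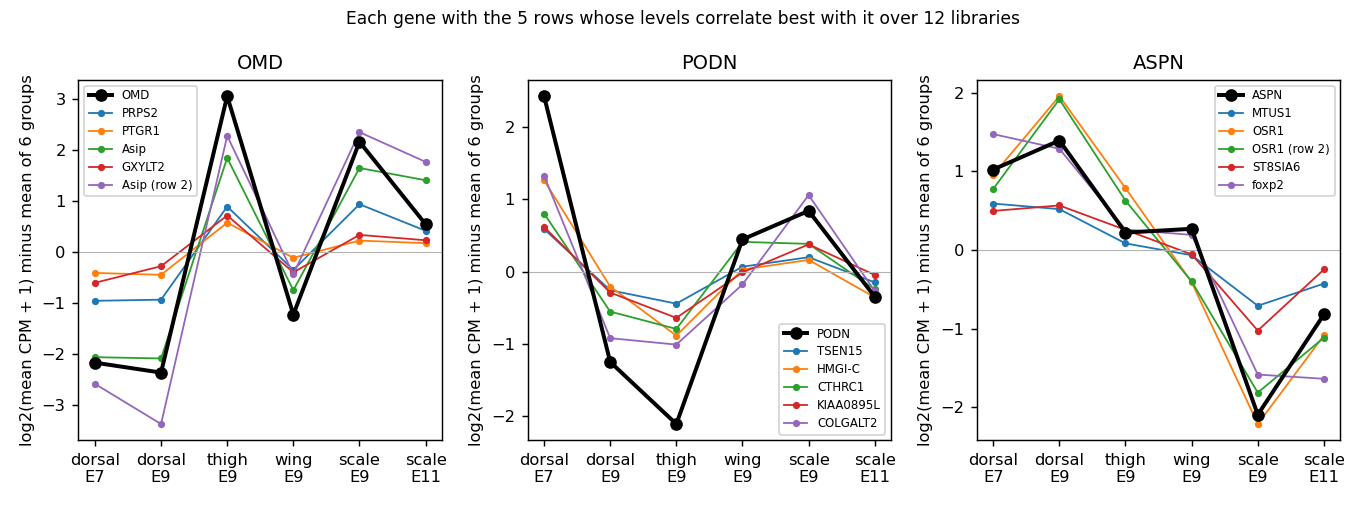
Log2(mean CPM + 1) of each group minus the mean over 6 groups, for each of the 3 genes (black) and the 5 rows most correlated with it over 12 libraries (colours); lines only join the groups of a row. The 5 rows share the peaks of OMD in thigh and scale skin, of PODN in dorsal E7 skin and of ASPN in dorsal skin, and most of them span less than the gene itself.

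Genes of the collagen fibrils to which SLRPs bind, and of the enzymes that process them, were followed in the same fits, where the median over all rows was -0.01 for scale against feather skin at E9, 0.03 for dorsal skin with age and 0.01 for scale skin with age. Fibrillar and fibril-associated collagens had 16 rows of 14 genes. Scale E9 skin had 4 higher and 1 lower (31.2% called, against 16.6% of all rows; median 0.26), led by COL9A2 (2.35 ± 0.25, adjusted p 3.19e-05). COL3A1, of type III collagen, had means of 1100 CPM in scale E9, 882 in wing, 1730 in dorsal E9 and 2601 CPM in thigh skin, and was lower than the mean of the 3 feather regions (-0.53 ± 0.16, adjusted p 0.0397) but not lower than wing skin. With age, 5 rose and 3 fell in dorsal skin (against 20.1% of all rows; median 0.18), led by COL22A1 (1.76 ± 0.41, adjusted p 0.00734) and COL9A2 (-1.87 ± 0.31, adjusted p 0.000796). In scale skin with age COL3A1 alone rose (1.45 ± 0.20, adjusted p 0.000872; median 0.27), from 1100 to 3006 CPM, which is 6.25% of the list against 5.83% of all rows. COL1A2, of type I collagen, had means of 6246 to 10418 CPM in feather groups, 14865 ± 1643 in scale E9 and 20968 ± 2116 CPM in scale E11 skin. The highest feather mean, that of thigh skin, had a wide spread (10418 ± 4339 CPM). The COL3A1 call at E9 was lost without dorsal E9 replicate 1, wing replicate 1 or 2, or scale E9 replicate 1 or 2 (adjusted p 0.0891 to 0.284). It was also lost without the thigh libraries (-0.17, adjusted p 0.360), without the dorsal E9 libraries (0.108) and with only the groups compared in the fit (0.101). The call of COL22A1 was lost without dorsal E9 replicate 1 (adjusted p 0.0801).

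Collagen crosslinking and processing genes had 20 rows of 19 genes. Scale E9 skin had 7 higher and 3 lower (against 16.6% of all rows; median 0.25), with P4HA3, a prolyl hydroxylase subunit, higher (0.996 ± 0.14, adjusted p 0.000232) and LOXL3, a lysyl oxidase, lower (-1.16 ± 0.28, adjusted p 0.0103). In dorsal skin 6 rose and 1 fell (35.0%, against 20.1% of all rows; median 0.12), led by the procollagen protease ADAMTS2 (2.38 ± 0.21, adjusted p 4.3e-06) and LOXL3 (-1.94 ± 0.34, adjusted p 0.00116). In scale skin with age 4 rose (against 4.37% of all rows that rose; median 0.20), led by the prolyl hydroxylase LEPREL1 (2.04 ± 0.25, adjusted p 0.000599). Without scale E9 replicate 2 the LOXL3 call of scale against feather skin was lost (-0.66, adjusted p 0.243).

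Genes that build or sulfate the sugar chains, and sulfate tyrosines, had 30 members measured. Scale E9 skin had 5 higher and none lower (median 0.28), so that 16.7% were called, near the 16.6% of all rows. B3GNT7, which extends keratan sulfate, the chain OMD carries, differed most (1.299 ± 0.24, adjusted p 0.00227). In scale skin with age B3GNT7 fell from 12.9 to 2.48 CPM (-2.01 ± 0.30, adjusted p 0.00152) and CSGALNACT1 of chondroitin sulfate synthesis rose (0.90 ± 0.23, adjusted p 0.0398; median 0.08), 6.67% of the list against 5.83% of all rows. Dorsal skin had 6 that rose and 2 that fell (26.7%, against 20.1% of all rows; median 0.08), led by B3GNT2 (1.48 ± 0.29, adjusted p 0.00241) and the sulfotransferase UST (-1.23 ± 0.26, adjusted p 0.00454). The B3GNT7 call at E9 was lost without scale E9 replicate 2 (adjusted p 0.0692), that of UST without dorsal E9 replicate 1 (0.0516), and that of CSGALNACT1 without any single one of the 4 scale libraries (0.0833 to 0.272) and with quantile normalization (0.121).

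TGF-beta ligands, receptors and matrix regulators had 19 measured. Scale E9 skin had 2 higher and 2 lower (21.1% called, against 16.6% of all rows; median -0.04), with THBS1, which activates latent TGF-beta, higher (0.96 ± 0.14, adjusted p 0.000434) and TGFBI, a matrix protein induced by TGF-beta, lower (-1.57 ± 0.21, adjusted p 0.000169). TGFBI rose in dorsal skin from 24.4 to 179 CPM (2.82 ± 0.25, adjusted p 5.14e-06) and in scale skin from 34.3 to 198 CPM (2.52 ± 0.25, adjusted p 0.000188). Dorsal skin had 5 that rose and 4 that fell (47.4%, against 20.1% of all rows; median -0.19), with LTBP2 lowest (-1.58 ± 0.39, adjusted p 0.0103), and scale skin 2 that rose (against 4.37% of all rows that rose; median 0.27). The LTBP2 call was lost without dorsal E7 replicate 1 or 2 or dorsal E9 replicate 2 (adjusted p 0.0571 to 0.0779).

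Markers of cell types that the skin could hold moved between the same groups, and their part in the levels of the 3 genes was not tested. Of all rows, 16.6% were called in scale against feather skin at E9 (7.77% higher, 8.86% lower), 20.1% in dorsal skin with age (12.2% rose, 7.96% fell) and 5.83% in scale skin with age (4.37% rose, 1.46% fell). Dermal fibroblast markers, 20 measured, had 10 lower and none higher in scale E9 skin (against 8.86% of all rows lower; median -0.66), led by S100A4 (-2.22 ± 0.23, adjusted p 2.09e-05). S100A4 had means of 14.4 CPM in dorsal E9 and 20.8 in thigh skin. In wing (1.06 ± 0.28 CPM) and scale E9 skin (0.965 ± 0.78 CPM) it was near the same level. Region by region, 11 markers were lower and 2 higher than in dorsal skin (21.8% of all rows called). Against thigh skin 8 were lower and 2 higher (24.4%), and against wing skin 5 were lower (8.89%). In dorsal skin 8 rose and 2 fell with age (against 20.1%; median 0.33), led by tenascin TNC (4.03 ± 0.29, adjusted p 6.75e-07) and LRIG1 (-0.95 ± 0.24, adjusted p 0.0121), and in scale skin 7 rose (35.0%, against 4.37%; median 0.43), led by TNC (2.21 ± 0.29, adjusted p 0.00073). Their summed level was 7272 to 7350 CPM in dorsal E7, 8857 to 9099 in dorsal E9, 8567 to 9588 in thigh, 7531 to 7576 in wing, 7268 to 7435 in scale E9 and 7670.0 to 8267 CPM in scale E11 skin. The LRIG1 call was lost without dorsal E7 replicate 1 or dorsal E9 replicate 1 (adjusted p 0.102 and 0.111).

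Tendon markers, 8 measured with FMOD and KERA among them, summed to 507.5 to 531 CPM in dorsal E7, 663 to 724 in dorsal E9, 1857 to 2336 in thigh, 1239 to 1403 in wing, 1816 to 1828 in scale E9 and 2278 to 2337 CPM in scale E11 skin. As with OMD, dorsal skin was the lowest, but the other groups were not in the order of OMD. The sum was higher in scale E11 than in scale E9 skin, whereas OMD was lower (9.43 against 31.0 CPM). Wing skin, with a sum of 1239 to 1403 CPM, had 2.05 CPM of OMD. A relation to OMD was not tested. In scale E9 skin 1 was higher, TNMD (1.43 ± 0.22, adjusted p 0.000534), and 2 lower, led by THBS4 (-1.79 ± 0.14, adjusted p 2.48e-06; median -0.14), 37.5% of the list against 16.6% of all rows. In dorsal skin 4 rose (against 12.2%; median 0.57), led by ABI3BP (3.22 ± 0.18, adjusted p 1.16e-07), and in scale skin 3 (37.5%, against 4.37%; median 0.35), led by MKX (2.38 ± 0.33, adjusted p 0.000985).

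Bone markers had 6 of 12 measured, and SP7, IBSP, SPP1, BGLAP, DMP1 and MEPE were not analysed here. They summed to 152 to 155 CPM in dorsal E7, 268 to 301 in dorsal E9, 195 to 221 in thigh, 268.5 to 286 in wing, 216.5 to 221 in scale E9 and 299 to 353 CPM in scale E11 skin. Thigh skin, highest in OMD, did not have the highest sum, but single markers went different ways. DLX5 had means of 46.2 CPM in thigh, 34.9 in scale E9, 34.2 in scale E11 and 11.2 to 16.7 CPM in wing and dorsal skin. PHEX was highest in dorsal E9 (125 CPM), RUNX2 in wing (141 CPM) and ALPL in scale E11 skin (46.15 CPM). A relation of these markers to OMD was not tested. Their median difference was 0.19 in scale against feather skin at E9 and 0.64 in scale skin with age. In dorsal skin 3 rose (against 12.2% of all rows; median 0.80), led by the phosphatase ALPL (2.17 ± 0.18, adjusted p 2.92e-06). Cartilage markers, 14 measured, had 4 higher and 3 lower in scale E9 skin (against 16.6% of all rows; median 0.05), led by COL9A2 and by MATN4 (-1.95 ± 0.25, adjusted p 0.000106). In dorsal skin 6 rose and 2 fell (57.1%, against 20.1%; median 0.18), led by HAPLN1 (2.41 ± 0.24, adjusted p 1.36e-05) and COL9A2, and in scale skin MATN4 alone rose (1.51 ± 0.30, adjusted p 0.00932; median 0.05), 7.14% of the list and near the 5.83% of all rows. The cartilage sum was 422.5 to 831 CPM in feather groups and 1321 to 1859 CPM in scale groups. Much of it was COL2A1 alone, with means of 177 to 334 CPM in feather groups, 935 in scale E9 and 1156 CPM in scale E11 skin. The MATN4 call with age was lost without scale E9 replicate 1 or 2 or scale E11 replicate 2 (adjusted p 0.0630 to 0.142).

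Smooth muscle and pericyte markers, 14 rows of 12 genes, had 11 lower in scale E9 skin (78.6%, against 8.86% of all rows lower; median -0.83) and 11 risen in dorsal skin with age (78.6%, against 12.2%; median 1.76), with MYOCD leading both (-2.88 ± 0.22, adjusted p 2.1e-06, and 4.75 ± 0.27, adjusted p 1.16e-07, for the MYOCD row with more reads). Region by region, 11 rows were lower in scale E9 than in dorsal skin (21.8% of all rows called). Against thigh skin 6 were lower (24.4% of all rows called), and against wing skin 2 (14.3%, against 8.89% of all rows; median -0.24). Wing against dorsal skin also had 11 lower (20.1% of all rows called). With age in scale skin 4 rose (28.6%, against 4.37%; median 0.51), led by RGS5 (1.495 ± 0.18, adjusted p 0.00046). They summed to 303 to 305 CPM in dorsal E7, 989 to 1181 in dorsal E9, 498 to 507.5 in thigh, 256 to 308 in wing, 262 to 301 in scale E9 and 436.5 to 469 CPM in scale E11 skin, and the other MYOCD row was at 0 in both scale E9 libraries. Endothelial markers, 15 measured, had 11 lower and 1 higher in scale E9 skin (80.0%, against 16.6% of all rows; median -1.13), led by SOX18 (-2.93 ± 0.18, adjusted p 3.69e-07) and PROX1 (1.69 ± 0.23, adjusted p 0.000205). With age 10 rose in dorsal skin (66.7%, against 12.2%; median 0.98), led by SOX18 (3.61 ± 0.22, adjusted p 2.38e-07), and 12 in scale skin (80.0%, against 4.37%; median 1.40), led by TEK (1.97 ± 0.28, adjusted p 0.00122). They summed to 711 to 729 CPM in dorsal E7, 1643 to 1907 in dorsal E9, 815.5 to 1025 in thigh, 529 to 663 in wing, 315 to 452.5 in scale E9 and 919.6 to 980.0 CPM in scale E11 skin. Both sums were highest in dorsal E9 skin, where ASPN was highest, and the endothelial sum was lowest in scale E9 skin, where ASPN was lowest. Other groups were not in the order of ASPN. Dorsal E7 skin, with 255 CPM of ASPN, had a lower endothelial sum than scale E11 skin, with 70.3 CPM. Its smooth muscle sum (303 to 305 CPM) was near that of scale E9 skin (262 to 301 CPM), where ASPN was 28.5 CPM. A relation to ASPN was not tested.

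Keratinocyte markers, 22 measured, had 7 higher in scale E9 skin (31.8%, against 7.77% of all rows higher; median 0.89), led by the plakophilin PKP2 (2.75 ± 0.18, adjusted p 7.11e-07). Their sum was 616 and 928 CPM in the 2 scale E9 libraries, and the share of epidermis in each is not known. In dorsal skin 11 rose and 1 fell (54.5%, against 20.1%; median 1.06), led by KRT5 (2.61 ± 0.48, adjusted p 0.00168) and JUP (-0.74 ± 0.21, adjusted p 0.0233). In scale skin limma and edgeR called 0, DESeq2 called 1, and 4 had an unadjusted p under 0.05 (median -0.35). Blood cell markers, 9 measured, had 3 lower in scale E9 skin (33.3%, against 8.86% of all rows lower; median -0.33) and 1 fallen in dorsal skin (11.1%, against 7.96%; median 0.22), led in both by the globin gene HBE (-2.23 ± 0.39, adjusted p 0.00126, and -2.22 ± 0.47, adjusted p 0.00448). Between scale E9 and wing skin alone, limma called 0 of the blood cell markers (8.89% of all rows), edgeR 1 and DESeq2 2. With age in scale skin limma, edgeR and DESeq2 called 0, with 2 under 0.05 unadjusted (median 0.12). The JUP call was lost without any single one of the 4 dorsal libraries (adjusted p 0.0683 to 0.153).

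Neuron and Schwann cell markers, 9 measured, had 1 higher and 3 lower in scale E9 skin (44.4%, against 16.6% of all rows; median -0.23), led by TUBB3 (1.05 ± 0.30, adjusted p 0.0298) and ELAVL4 (-1.26 ± 0.18, adjusted p 0.000342). In dorsal skin TUBB3 fell with age (-2.11 ± 0.37, adjusted p 0.00123), with a median of 0.26 over the list. Skeletal muscle markers, 7 of 14 measured, had 2 lower in scale E9 skin (28.6%, against 8.86% lower; median -0.64) and 3 risen and 2 fallen in dorsal skin (71.4%, against 20.1%; median 1.41), led by MYBPC1 (-1.40 ± 0.30, adjusted p 0.0053, and 2.51 ± 0.37, adjusted p 0.000333) and PAX3 (-1.47 ± 0.26, adjusted p 0.00145). The skeletal muscle sum was 26.6 and 136 CPM in the 2 dorsal E9 libraries and 18.3 to 28.4 CPM in the other groups. Much of the dorsal E9 sum thus came from 1 library. In scale skin with age limma and edgeR called 0 in either list and DESeq2 1 in each, with 1 under 0.05 unadjusted in each (medians 0.12 and 0.55). The TUBB3 call at E9 was lost without dorsal E9 replicate 1 or scale E9 replicate 1 or 2 (adjusted p 0.0589 to 0.313) and that of MYBPC1 in scale skin without scale E9 replicate 1 or 2 (0.0530 and 0.0672). Leaving out dorsal E9 skin also ended both calls (0.168 and 0.124, adjusted).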

How the data were processed

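The deposited table holds signal values in CPM, which the authors made from read counts scaled to an effective library size. It has 1 column per library, and all 12 columns were matched to samples. With this scaling the columns summed to 958975 to 1210599 CPM, the highest sum being that of thigh replicate 2. The build galGal4 and the tools edgeR, HTSeq, Partek and TopHat2 are named, without version, role or order, per the submitters' processing notes. Libraries were TruSeq RNA V2 per the labels' protocols. Values up to 100 CPM were whole multiples of 1 read within 0.0055 CPM for 100.0% of values in each library, and reads were recovered from them. A separate check did not accept whole reads for thigh replicate 2, so its recovered reads are less certain.

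The 3 genes and all 15 lists were chosen with earlier results of these data known. A row was kept where 2 or more libraries reached 1 CPM, which left 12277 rows and removed 20. All 3 genes and all 11 other family genes passed. limma 3.58.1 in R 4.3.3, with a mean-variance trend and 1 mean per group over all 12 libraries, was fitted to log2(CPM + 1), which understates changes at low CPM. Tests were two-sided, with Benjamini-Hochberg adjustment over all rows within a comparison and calls at 0.05. For OMD, PODN and ASPN only differences and standard errors were read. The difference between the changes with age in scale and dorsal skin was added after the values were seen.

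Named were all family genes and, of each other list, the called gene with the largest difference in each direction in each of 3 comparisons (scale against feather skin at E9, and both ages). Levels of PDGFRA, COL1A2, COL2A1, DLX5, PHEX and RUNX2 were given outside this rule. Similar rows were the 5 with the highest Pearson r. Alternatives were pseudocounts of 0.5 and 2 CPM, a filter at 5 CPM or none, scaling by median of ratios or by quantiles, only the groups compared, no trend, edgeR 4.0.16 and DESeq2 1.42.0 on reads, a replicate block, and leaving out each library or the dorsal E9 or thigh libraries. The procedure was tested on simulated data. Some calls within the bone and the neuron and Schwann cell marker lists are not reported here.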

Additional observations from a re-analysis of the deposited data

Results flagged for a closer look

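For LUM and TSKU the signs of the change with age were opposite in scale and dorsal skin. Their libraries of the 2 ages did not overlap in either skin, and these genes were singled out for that. KERA also had opposite signs (0.74 ± 0.18 in dorsal and -0.05 ± 0.18 in scale skin), but its scale libraries of the 2 ages overlapped. TSKU changed by 0.49 ± 0.15 in dorsal skin (limma, adjusted p 0.0277, lost without any single one of the 4 dorsal libraries) and differed by -0.41 ± 0.15 in scale skin, which did not pass (adjusted p 0.134). The difference of these differences was -0.91 ± 0.21. LUM differed by 0.43 ± 0.20 and -0.22 ± 0.20, neither of which passed (limma, adjusted p 0.172 and 0.669), and their difference, -0.64 ± 0.29, did not pass either (adjusted p 0.303). Since both genes were picked for opposite signs, a p for such a difference leans towards passing. None is read for TSKU here, and that of LUM did not pass even so. The comparison sets E7 to E9 against E9 to E11, so tissue and age cannot be told apart.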

How the results depend on the processing

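The counts of other SLRP genes called depended on the settings. Between scale E9 skin and the mean of the feather regions, 4 were called, but 6 with DESeq2 or quantile normalization, 2 with only the groups compared, 1 without the dorsal E9 libraries, 10 without the thigh libraries, and 2 to 7 without 1 library. Between dorsal ages, 4 were called, 7 with only the groups compared and 2 to 3 without 1 library. Between scale ages all 15 alternatives gave 0. Of the pairs of regions, scale against thigh skin gave 2, but 1 with quantile normalization, only the groups compared or no trend, and 1 to 4 without 1 library. Scale against wing skin gave 2, but 5 with quantile normalization or only the groups compared, and 0 to 2 without 1 library. Thigh against dorsal skin gave 8, but 4 with only the groups compared. Wing against dorsal skin gave 6, but 10 with only the groups compared and 3 to 4 without 1 library. Wing against thigh skin gave 3, but 1 with only the groups compared and 1 to 4 without 1 library. The cause was not tested.

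The OMD difference between scale and feather skin, 2.36, was 2.64 and 1.99 with pseudocounts of 0.5 and 2 CPM, 3.11 in edgeR, 3.12 in DESeq2, 1.27 without dorsal E9 skin, 3.97 without thigh skin and 2.26 to 2.46 without 1 library. PODN was 1.25 without thigh skin and ASPN -2.31 without dorsal E9 skin. With age in dorsal skin, OMD was -0.58 in edgeR and -0.62 in DESeq2, and PODN -3.93 to -3.45 without 1 library. ASPN between wing and thigh skin, 0.10, was -0.29 without thigh replicate 1, a reversal, and 0.48 without thigh replicate 2. For the other named genes, 86 in a given comparison, 1389 of 1466 values under alternatives stayed on the same side of the threshold, 58 lost the call, 19 gained one and none of the called ones changed sign.

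Replicate numbers showed no strong pairing of the samples: deviations correlated at -0.101 to 0.235 between groups, which does not exclude a weak one. A replicate block called more rows in each comparison, such as 3275 against 2995 for scale E9 against thigh skin. With a replicate block, 5, 4 and 0 other SLRP genes were called in the main comparisons, with FMOD added (adjusted p 0.0417). With the numbers of dorsal E9 crossed, chosen after seeing the data, 2699 rows were called between scale and dorsal E9 skin, against 2676 without a block and 2780 with it uncrossed. Depth limits OMD in dorsal skin, at 6 to 9 reads per library, and FMOD, EPYC, CHAD and CHADL, at 5 to 149 reads.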
